A study of Mus musculus with 6 samples.

Results

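Before a cell copies its DNA, every origin of replication has to be licensed. Origin recognition complex, with Orc1 as a subunit, binds the origin, Cdc6 and Cdt1 join it, and together they load the ring-shaped MCM helicase, which is built from Mcm2, Mcm3, Mcm4, Mcm5, Mcm6 and Mcm7. Mcm10 acts later, when the loaded helicase starts to unwind DNA. Licensing is confined to late mitosis and G1, and transcription of these genes in cycling cells is known to depend largely on E2F factors. In newborn skin, the matrix cells of growing hair follicles and the basal keratinocytes are the main cycling epithelial cells.

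The 10 genes Mcm2, Mcm3, Mcm4, Mcm5, Mcm6, Mcm7, Mcm10, Cdc6, Cdt1 and Orc1 were taken by symbol, and all 10 were among the 24453 genes listed in every library. All 10 also passed the filter on low counts that left 14345 genes for testing. RNA was sequenced from sorted cells of back skin at postnatal day 0 that every label calls hair follicle cells. The one sorting gate in the written protocol is instead for interfollicular epidermis (Epcam and Sca1 positive, high in α6-integrin), so the gate used for these libraries is not settled by the labels. The labels give the genotype of 3 libraries only as control. The other 3 were Ring1a-/- Ring1b-/I53A, called mutant here. Ring1a (gene Ring1) and Ring1b (gene Rnf2) are the ubiquitin ligases of Polycomb repressive complex 1, and the I53A substitution weakens Ring1b as a histone ligase. No group separates the 3 alleles, the labels name no Cre driver, and they do not say whether libraries of a group came from separate animals, so that p-values measure the spread between these libraries, part of which may be technical.

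Library totals ran from 14335156 to 18811587 counts, and the 10 genes together took 0.0391% to 0.0756% of the counts in the controls and from 0.0245% up to 0.0458% of those of the mutants. Levels are given as CPM, the reads of a gene scaled by the TMM-adjusted size of its library. Ring1 transcript, which checks the labels, lay at 16.8 to 22.1 CPM in the controls and 3.23 to 7.10 CPM in the mutants. Rnf2 lay at 55.7 to 67.8 and 64.6 to 71.3 CPM, with no fall. The mutant genotype holds a Ring1b- allele beside the I53A one. Counts per gene do not tell these alleles apart, so Rnf2 leaves that part of the labels unchecked. Markers of epithelium, follicle, interfollicular suprabasal cells and fibroblasts were all detected, while Ly6a and the follicle marker Cd34 were low. The summed level of Epcam, Itga6, Krt5 and Krt14 was 9124 to 11517 CPM in the controls and 10657 to 15049 CPM in the mutants. Ly6a, the gene of the Sca1 antigen that marks interfollicular cells in the written gate, was at 0.502 to 1.31 and 1.00 to 1.49 CPM. Of 8 follicle markers all but Cd34 were tested, and their sum was 1535 to 2036 CPM in the controls and 1514 to 2315 CPM in the mutants. Of these, 4 were lower in the mutants and 1 was called by the test given below, Lgr5, a receptor gene of follicle stem and progenitor cells, at 134, 200.2 and 199 CPM in the controls and 83.2, 85.9 and 82.1 CPM in the mutants (log2 fold change -1.09, SE 0.18, adjusted p = 0.0125). Krt17 and Krt79, keratin genes of the follicle, were higher in every mutant than in any control library, with log2 fold changes of 0.74 (SE 0.19, adjusted p = 0.0766, or 0.00366 when blocked by replicate number) and 1.20 (SE 0.33, adjusted p = 0.0919, or 0.0476 when blocked). The share of all genes with that upward pattern was not computed. Shh, a signal of the follicle matrix, had a log2 fold change of -0.73 (SE 0.45, adjusted p = 0.521, or 0.00560 when blocked). With the block 4 of 7 follicle markers were called, 2 in each direction, where 3.29% of all genes were called downward and 6.09% upward. Of the epithelial genes Krt5 was called with the block (0.32, adjusted p = 0.477, or 0.0476 when blocked). The 6 fibroblast markers summed to 588 to 1024 and 655 to 923 CPM. Those of 4 interfollicular suprabasal genes, mostly Krt1 and Krt10, summed to 3820 to 5283 and 2309 to 3858 CPM, and those of 4 immune genes to 13.2 to 54.7 and 9.54 to 18.1 CPM. Of the 4 interfollicular suprabasal genes 2 were lower in the mutants, Krt1 and Krt10, and none was called with group alone. Krt1 had a log2 fold change of -0.66 (SE 0.23, adjusted p = 0.195, or 0.00154 when blocked). Lor and Ivl, at no more than 10.3 CPM in any library, had higher means in the mutants and were called in neither fit. Ivl was at 0.502 to 1.08 CPM in the controls and 1.14 to 2.36 CPM in the mutants, without overlap, while Lor overlapped. Endothelial, melanocyte, Merkel and red cell lists each summed to at most 25.3 CPM in any library, with no gene called in either fit and Hba-a1 and Hbb-bs at 0 in all libraries. The part of these cell types in the results below was not tested.

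The licensing genes were lower in mutant than in control libraries in 9 of 10 cases, but the fall passed the test for Mcm6 alone. Expression was compared with edgeR's quasi-likelihood test over all 14345 genes, and a gene was called at a Benjamini-Hochberg adjusted p under 0.05, two-sided. Of the 10 members 1 fell and none rose, where 0.404% of all genes were called downward and 2.59% upward. The median log2 fold change of the 10 was -0.64, against 0.00 over all genes tested, of which 50.3% were below 0. With the replicate number of the labels as a block, 4 members fell (Mcm2, Mcm4, Mcm5 and Mcm6) against 3.29% of all genes, and none rose against 6.09%. Since whole sorted populations were sequenced, fewer cells of a cycling type and less RNA in each such cell cannot be told apart.

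Stretches around the start sites are shown for the 7 genes in which a word of the E2F type, given below, was found. A part of E2F factors in the differences between libraries was not tested. RefSeq promoter windows (GRCm38.p6, 250 bases before to 50 after a start) were found for 9 of the 10 genes, the exception being Mcm4. The windows were searched on both strands for 4 words of the E2F type, TTTCCCGC, TTTCGCGC, TTTGCCGC and TTTGGCGC. Capitals mark the matches, and a match on the other strand reads as its reverse complement. Each stretch is written 5′ to 3′ on the strand of its gene.
Mcm6: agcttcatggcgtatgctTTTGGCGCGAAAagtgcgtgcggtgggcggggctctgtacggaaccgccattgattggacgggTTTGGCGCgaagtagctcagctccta
Mcm5: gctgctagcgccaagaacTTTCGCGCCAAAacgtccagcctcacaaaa
Mcm7: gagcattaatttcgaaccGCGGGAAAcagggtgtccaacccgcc
Orc1: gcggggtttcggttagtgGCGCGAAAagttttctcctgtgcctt
Cdc6: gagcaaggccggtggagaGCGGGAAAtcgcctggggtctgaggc
Mcm3: gtTTTGGCGCca
Cdt1: ttTTTGGCGCca

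The Mcm6 stretch lies at chr1:128359727-128359833 (minus strand), 128 to 22 bases before the start, and holds a pair of overlapping words and a further one. That of Mcm5 lies at chr8:75109338-75109385 (plus strand) and also holds a pair of overlapping words. Mcm7 is shown at chr5:138172023-138172066 (minus strand), Orc1 at chr4:108579409-108579452 (plus strand) and Cdc6 at chr11:98907995-98908038 (plus strand). The stretches of Mcm3 at chr1:20820265-20820276 (minus strand) and of Cdt1 at chr8:122568045-122568056 (plus strand) lie after the start. Starts here are those of RefSeq, whereas the gene spans given below are from GENCODE. The stretches of Cdc6 and Mcm7, though before the RefSeq start, lie inside those spans, and that of Orc1 lies partly inside. The windows of Mcm3 and Mcm7 hold 1 further word each, also after the start and not printed. At least 1 word was present for 7 of the 9 genes, and in 2.26% of the 32851 windows of the whole table. The windows of Mcm2 and Mcm10 held none. The CCAAT box, searched in the same way, was present for 7 of the 9 genes (not for Cdc6 or Cdt1) and in 37.4% of all windows. Matches are a description of letters.

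Among the helicase subunits, Mcm6 (chromosome 1, 128331590 to 128359664, minus strand, GRCm38) moved most clearly. It was at 132, 134 and 88.4 CPM in controls 1, 2 and 3 and at 55.9, 63.9 and 44.5 CPM in mutants 1, 2 and 3. Every mutant library was below every control library, and the lowest control was the third one. Means were 118 ± 25.7 and 54.8 ± 9.75 CPM (SD over 3 libraries), and the fitted level in mutants was 0.464 of that in controls (log2 fold change -1.11, SE 0.21, 95% interval -1.59 to -0.63, adjusted p = 0.0239). By size of fall it ranked 29 of the 58 genes called downward. The call held with DESeq2 (adjusted p = 0.000151), which called 1 member and 1.16% of all genes downward. It also held with limma-voom (adjusted p = 0.0257), which called 1 member and 0.453% of all genes downward, and the replicate block gave an adjusted p of 0.000929. It was lost in 5 of 6 fits that left out 1 library, with adjusted p up to 0.111 without control 1, and was kept without control 3 (0.00469).

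Mcm4 (chromosome 16, 15623897 to 15637400, minus strand), the subunit transcript with the highest CPM before any scaling by length, also had groups that did not overlap. Its levels were 148, 202 and 130 CPM in the controls and 98.9, 121 and 74.1 CPM in the mutants. The log2 fold change of -0.71 (SE 0.23, 95% interval -1.21 to -0.20) did not pass (adjusted p = 0.152), but passed with the replicate block (adjusted p = 0.00454). Mcm4 and Mcm6 were the 2 of 10 members with every mutant library below every control library, where 9.15% of all genes had that pattern.

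Mcm2 (chromosome 6, 88883474 to 88898780, minus strand) and Mcm5 (chromosome 8, 75109569 to 75128439, plus strand) showed falls of similar size with more spread. Mcm2 was at 93.2, 120 and 52.3 CPM in the controls and 49.4, 71.6 and 31.1 CPM in the mutants. Control 3 lay below mutant 2, so the groups overlapped, yet each mutant library was below the control of its own number. Its fitted log2 fold change was -0.80 (SE 0.35, adjusted p = 0.317, or 0.00516 when blocked). Mcm5 was at 47.01, 61.6 and 24.6 CPM in the controls and 29.5, 26.7 and 16.4 CPM in the mutants. Control 3 was again the library that overlapped with the mutants. For Mcm5 the log2 fold change was -0.88 (SE 0.34, adjusted p = 0.257, or 0.0220 when blocked). Without control 2 the values were -0.52 for Mcm2 and -0.56 for Mcm5.

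Mcm3 (chromosome 1, 20802968 to 20820312, minus strand) had the widest spread among the controls. It was at 47.97, 93.4 and 27.8 CPM in the controls and 32.6, 36.9 and 25.9 CPM in the mutants, so that the highest control was 3.36 times the lowest. The group means differed by less than that spread. The log2 fold change of -0.83 (SE 0.38, 95% interval -1.67 to 0.01) did not pass with group alone (adjusted p = 0.346) or with the replicate block (adjusted p = 0.10). Without control 2 it was -0.25 and without control 3 it was -1.15, which passed (adjusted p = 0.0436). Mcm5 was likewise called without control 3 (adjusted p = 0.0362).

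Mcm7 (chromosome 5, 138164583 to 138172422, minus strand) had the smallest difference of the 6 subunits. Its levels were 45.2, 59.0 and 32.0 CPM in the controls and 42.1, 46.0 and 22.8 CPM in the mutants. Most libraries of both groups lay in the same range. Mcm7 had a log2 fold change of -0.30 (SE 0.30, 95% interval -0.97 to 0.38, adjusted p = 0.741, or 0.251 when blocked), an interval that includes a fall of the size of Mcm2 as well as no change. It was -0.06 without control 2 and -0.04 without mutant 3.

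**Figure D1:**
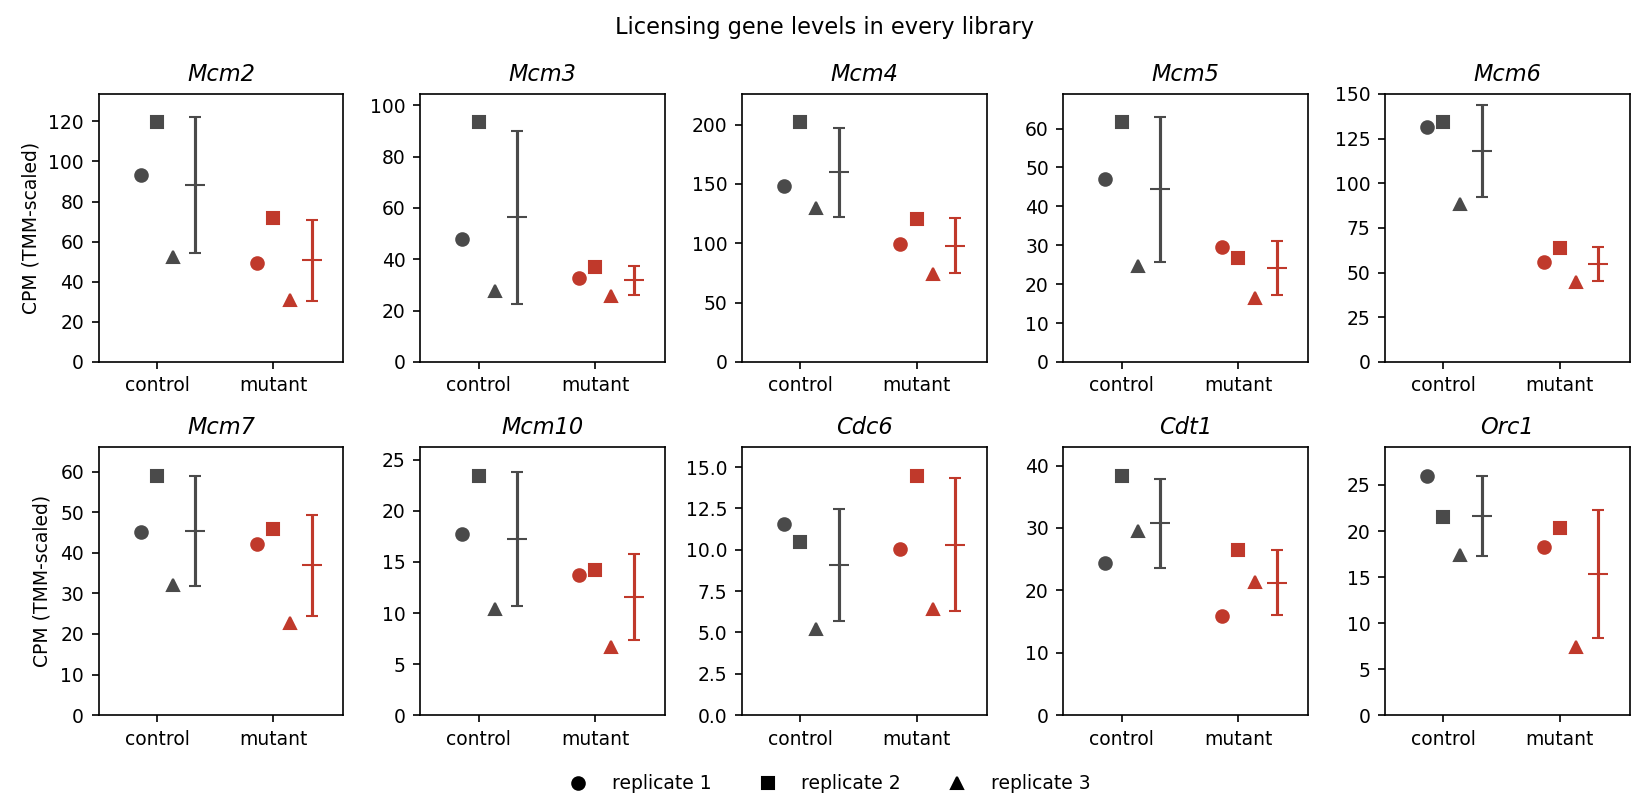
Level of each of the 10 genes in CPM (linear axes from 0, scaled per gene) in 3 control (grey) and 3 mutant (red) libraries, symbols marking the replicate number and bars the mean ± SD. Mcm4 and Mcm6 are the genes whose mutant libraries all lie below the controls, and Cdc6 is the gene whose mutant mean is higher.

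The loading factors and Mcm10 were expressed at lower levels, and none of them passed the test. Cdt1 (chromosome 8, 122568015 to 122573554, plus strand), which brings the helicase to the origin, was at 24.3, 38.4 and 29.5 CPM in the controls and 16.0, 26.4 and 21.3 CPM in the mutants. Its mutant libraries were lower by similar amounts at each replicate number, with log2 ratios of -0.61, -0.54 and -0.47, although mutant 2 lay above control 1. The log2 fold change was -0.53 (SE 0.26, adjusted p = 0.373, or 0.0758 when blocked), and -0.35 without control 2.

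Orc1 (chromosome 4, 108579423 to 108614833, plus strand), the origin recognition subunit whose level is known to vary through the cell cycle, was at 26.0, 21.5 and 17.4 CPM in the controls and 18.3, 20.3 and 7.42 CPM in the mutants. The difference rested mainly on mutant 3. Its log2 fold change was -0.49 (SE 0.35, adjusted p = 0.593), or -0.16 without mutant 3 and -0.75 without mutant 2. Mcm10 (chromosome 2, 4989714 to 5012791, minus strand) was at 17.8, 23.5 and 10.4 CPM in the controls and 13.8, 14.2 and 6.69 CPM in the mutants. Both groups had their lowest value in library 3 and overlapped (log2 fold change -0.57, SE 0.37, adjusted p = 0.547), and the value was -0.28 without control 2 and -0.30 without mutant 3.

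Cdc6 (chromosome 11, 98907801 to 98923940, plus strand), the ATPase that loads the helicase together with the origin recognition complex, was the 1 member with a higher mean in the mutants. It was at 11.6, 10.5 and 5.22 CPM in the controls and 10.03, 14.5 and 6.42 CPM in the mutants. The groups overlapped almost wholly. The log2 fold change of 0.18 (SE 0.40, 95% interval -0.70 to 1.07, adjusted p = 0.894) turned to -0.09 without control 3 and to -0.14 without mutant 2. The libraries held 92 to 243 reads of Cdc6.

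**Figure D2:**
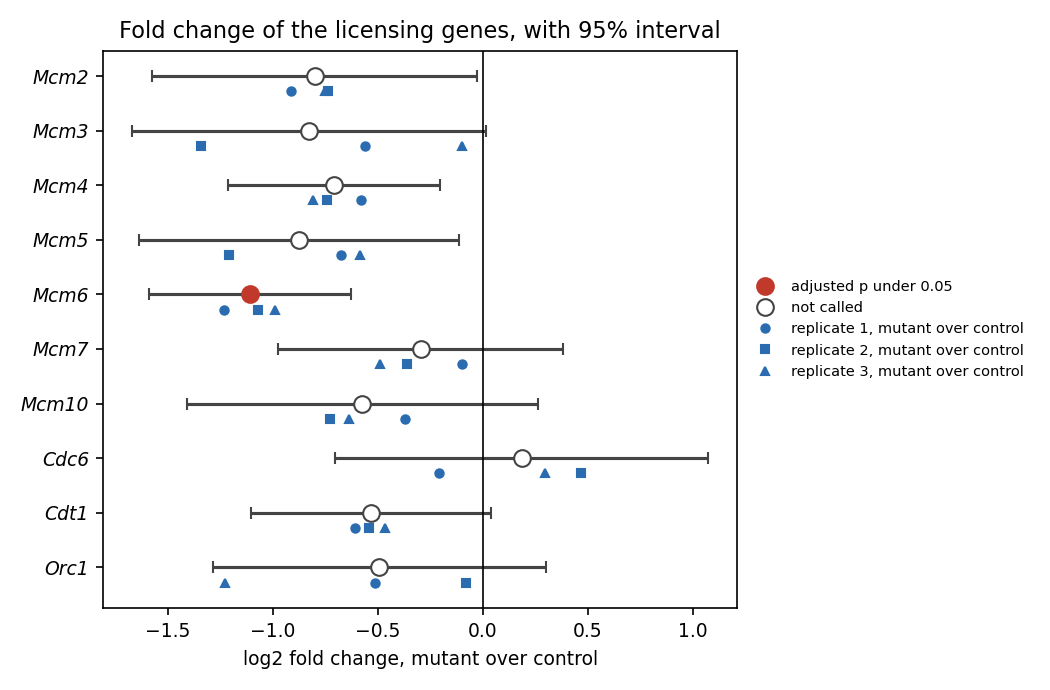
Log2 fold change of mutant over control for each gene with its 95% interval from the quasi-likelihood fit (circles, filled red where called), and beneath it the log2 ratio of mutant to control CPM at each replicate number (blue). The point of Mcm6 at -1.11 is the 1 called, and the interval of Cdc6 spans 0 with -0.70 to 1.07.

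The genes rose and fell together from library to library within each group. Control 2 was the highest of the 6 libraries for 8 members, and mutant 3 the lowest for 8 members. Within the controls, the third library was the lowest for 9 members and the second the highest for 8. The highest control was 1.499 (Orc1) to 3.36 (Mcm3) times the lowest, and the highest mutant 1.42 (Mcm3) to 2.74 (Orc1) times the lowest. All members but Cdc6 were lower in the mutant of each replicate number, 9 of 10 genes, where 22.4% of all genes were lower at all 3 numbers. Same-numbered libraries deviated from their group means together over all genes, as described with the processing, and the labels do not say what a number marks.

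This order of libraries was not that of the proliferation markers Mki67 and Top2a, taken from the list of G2 and mitosis genes. Mki67, a nuclear protein of cycling cells, was at 1797, 2031 and 2532 CPM in the controls and 1335, 1079 and 1242 CPM in the mutants. Top2a, the topoisomerase that untangles sister chromatids, was at 490, 574 and 607 CPM in the controls and 384, 345 and 357 CPM in the mutants. Control 3, the lowest control for most licensing genes, was thus the highest control for both. Neither had overlapping groups, and Mki67 was called (SE 0.17 around a log2 fold change of -0.80, adjusted p = 0.0408) but neither with the stricter filter (0.0598) nor in any of the 6 fits without 1 library. Top2a was just short of the threshold (-0.62, SE 0.14, adjusted p = 0.0515). It was called with the replicate block (0.00789), DESeq2 (0.0124), limma-voom (0.0411), upper-quartile factors, no filter and robust dispersion, and in none of the fits without 1 library (up to 0.216). Pcna, the sliding clamp of the fork, was at 42.7, 46.6 and 32.6 CPM in the controls and 25.3, 35.2 and 28.1 CPM in the mutants, with control 2 highest and control 3 lowest of the controls, the order that 7 of the 10 licensing genes had (log2 fold change -0.46, SE 0.22, adjusted p = 0.366).

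**Figure D3:**
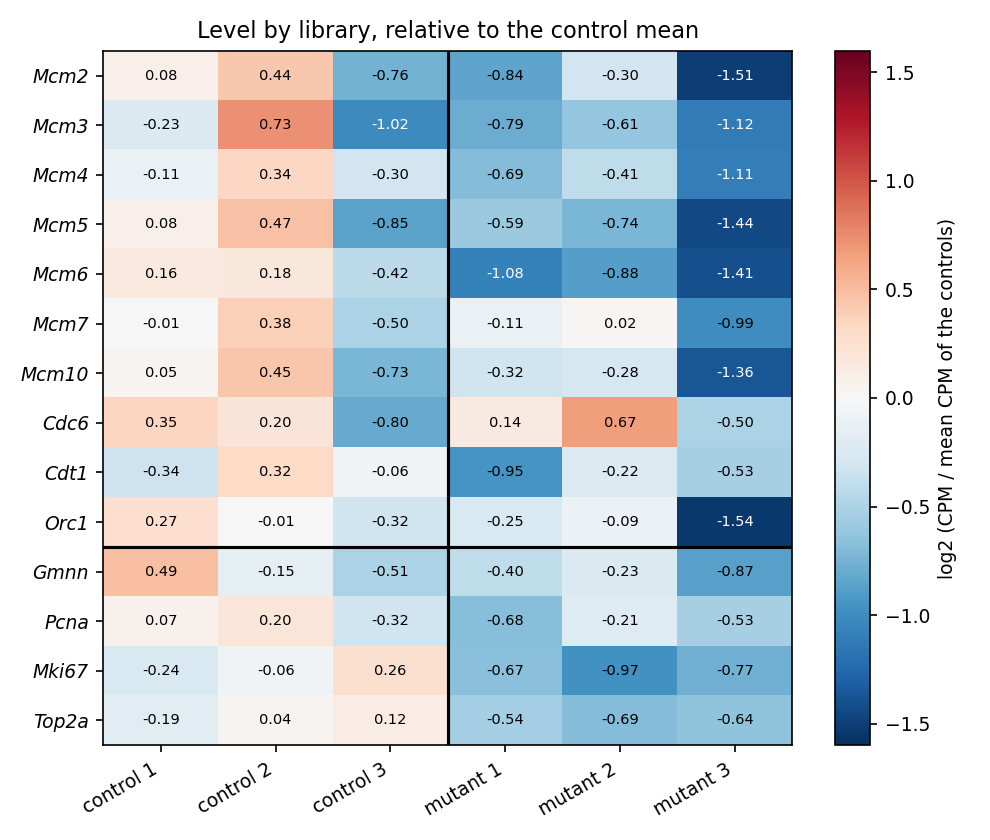
Log2 of CPM over the mean of the 3 controls for the 10 licensing genes (above the line) and 4 reference genes (below it), with 1 column per library and blue for lower. Control 3 is below the control mean for all 10 licensing genes (Mcm3 -1.02) and above it for Mki67 (0.26) and Top2a (0.12), and mutant 3 is the lowest library for 8 of the 10.

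Set against Mki67 within each library, the licensing genes did not separate the groups. The ratio of Mcm6 to Mki67 CPM was 0.0732, 0.0660 and 0.0349 in the controls, against 0.0419, 0.0593 and 0.0359 in the mutants. That of Cdc6 was 0.00645, 0.00516 and 0.00206 in the controls, against 0.00751, 0.0134 and 0.00517 in the mutants. For 0 of the 10 members did the ratio separate the groups, where the ratio to Mki67 did so for 59.2% of the 13962 genes with reads in every library. Mki67 was itself lower in every mutant library than in any control, and such a fall raises the ratio of an unchanged gene. For Mcm6 and Mcm5 the overlap came from control 3 alone. The Mcm5 ratio was 0.0262, 0.0303 and 0.00971 in the controls, against 0.0221, 0.0247 and 0.0132 in the mutants. These ratios are given as descriptions, with no test.

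Levels between genes were compared per kilobase of the longest principal transcript. In the controls the order was Mcm4 (44.6 ± 10.5 CPM per kb), Mcm6 (40.5 ± 8.83), Mcm2 (26.2 ± 10.05), Mcm3 (18.6 ± 11.1), Mcm7 (15.3 ± 4.56), Cdt1 (14.04 ± 3.26), Mcm5 (13.1 ± 5.52), Orc1 (7.18 ± 1.44), Cdc6 (3.55 ± 1.33) and Mcm10 (3.54 ± 1.35 CPM per kb, SD, n = 3 each). Neighbours differed by more than the SD of each at 3 places, between Mcm6 and Mcm2, between Mcm5 and Orc1 and between Orc1 and Cdc6. This order and its gaps depend on the length chosen and are given for the principal transcripts alone. Merged exon lengths were 6956 against 3371 bases for Mcm2, 4666 against 2910 for Mcm6 and 5229 against 2559 for Cdc6. For Mcm4 both lengths were 3589 bases. In the mutants the per-length level of Mcm4 was 27.3 ± 6.50 and that of Mcm6 18.8 ± 3.35 CPM per kb, while Mcm7 at 12.5 ± 4.19 came before Mcm3 at 10.5 ± 1.83 CPM per kb, a gap below the SD of Mcm7 and above that of Mcm3.

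The helicase ring holds its 6 subunits in equal number, so their transcript shares were set side by side. Mcm7 made up 9.59%, 9.64% and 9.89% of the summed per-length level of Mcm2 to Mcm7 in the controls, against 14.9%, 13.8% and 11.6% in the mutants. Its share was higher in every mutant library than in any control (mean 9.71 ± 0.162% and 13.5 ± 1.69%). How often shares of other genes separate the groups in this way was not computed, so the separation has no background beside it. Mcm6 made up 28.4%, 22.3% and 27.8% in the controls, against 20.2%, 19.5% and 23.1% in the mutants, with mutant 3 above control 2. The shares of Mcm2, Mcm3, Mcm4 and Mcm5 overlapped between groups, Mcm4 holding 28.7 ± 3.81% in the controls and 30.0 ± 1.09% in the mutants. Shares in 1 library sum to 100, so a lower share of one subunit raises the others, and no test was made.

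**Figure D4:**
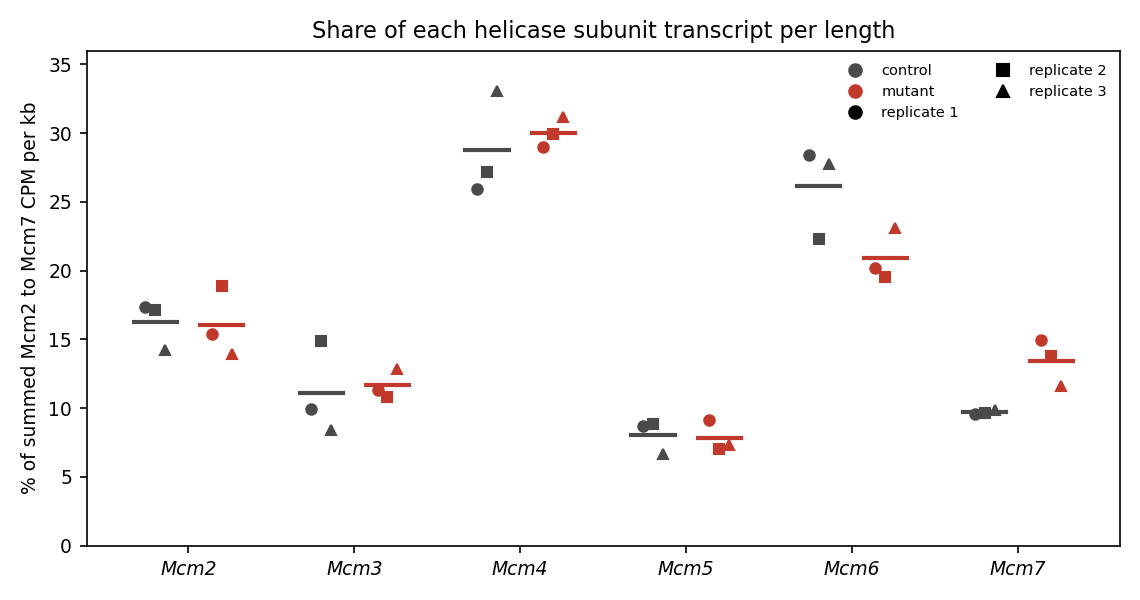
Share of each helicase subunit transcript in the summed CPM per kb of Mcm2 to Mcm7 (linear axis from 0), 3 control (grey) and 3 mutant (red) libraries with their means as lines and symbols for the replicate number. Mcm7 shares of 11.6% to 14.9% in the mutants lie above 9.59% to 9.89% in the controls, and the other subunits overlap. How often such separation arises among other genes was not computed.

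Mcm6 fell relative to 3 of the other 9 members without overlap between the groups. The ratio of Mcm6 to Mcm7 CPM was 2.91, 2.27 and 2.76 in the controls, against 1.33, 1.39 and 1.95 in the mutants. The ratio to Cdc6 was 11.4, 12.8 and 16.9 in the controls, against 5.57, 4.41 and 6.94 in the mutants. The ratio to Mcm4 was 0.888, 0.664 and 0.681 in the controls, against 0.565, 0.530 and 0.601 in the mutants. Mcm6 was lower in all mutant libraries relative to 70.0% of the other 13962 genes, so separation from 3 of 9 members was a smaller share than that of other genes.

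Genes next to the members were read beside them. Prkdc, a kinase of DNA repair, starts 466 bases from Mcm4 on the opposite strand. It was at 99.0, 103 and 57.6 CPM in the controls and 67.2, 54.4 and 31.9 CPM in the mutants, low in the third library of each group (log2 fold change -0.75, SE 0.30, adjusted p = 0.270, or 0.00833 when blocked). Prpf38a, a splicing factor gene, starts 87 bases from Orc1 on the opposite strand and was at 25.4 ± 6.10 and 22.4 ± 3.62 CPM (adjusted p = 0.819). Ap4m1 and Cops6 overlap the ends of Mcm7 on the opposite strand by 421 and 64 bases. Ap4m1 and Cops6 were at 19.1 ± 3.61 and 20.9 ± 1.96 CPM and at 20.3 ± 3.32 and 25.3 ± 3.61 CPM (adjusted p = 0.857 and 0.575). Mir25, Mir93 and Mir106b, miRNA genes inside Mcm7 on its own strand, were listed at no more than 0.879 CPM in any library and did not pass the filter. How strand was treated in the counting is not stated in the labels, so reads in these overlaps cannot be told apart, and the same holds for Orc1 and the antisense model Gm12743 (22409 shared bases) and for Cdt1 inside the read-through model Gm20388.

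Other genes of the licensing machinery gave no call. Of 11 other origin recognition and licensing genes none was called, also with the replicate block, and 10 had a log2 fold change below 0 with a median of -0.18. Mcmbp, which binds the MCM proteins, was at 197, 208 and 185 CPM in the controls and 165, 181 and 139 CPM in the mutants (log2 fold change -0.28, SE 0.15, adjusted p = 0.452). Orc2 (-0.36, adjusted p = 0.519) and Orc4 (-0.24, adjusted p = 0.665) are subunits of the origin recognition complex. Gmnn, the Cdt1 inhibitor geminin, was at 13.5, 8.66 and 6.75 CPM in the controls and 7.29, 8.23 and 5.28 CPM in the mutants (-0.47, SE 0.35, adjusted p = 0.613). The ratio of Cdt1 to Gmnn CPM was 1.80, 4.43 and 4.36 in the controls, against 2.19, 3.21 and 4.04 in the mutants, within the same range.

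Of 8 genes that control licensing by proteolysis none was called, and 1 fell with the replicate block, where 3.29% of all genes did. That gene was Dtl, the adaptor that targets Cdt1 for destruction in S phase (86.7 ± 28.1 CPM in controls, 55.1 ± 12.4 CPM in mutants, fitted difference -0.65 on the log2 scale, SE 0.27, adjusted p = 0.288, or 0.0186 when blocked). Skp2, another ubiquitin ligase subunit acting on Cdt1, was at 50.9 and 37.8 CPM (adjusted p = 0.465). Cul4b was at 134 and 111 CPM (adjusted p = 0.484) and Fzr1 at 14.9 and 18.8 CPM (adjusted p = 0.718).

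Genes that start the loaded helicase showed 1 call. Of 17 tested, Ticrr fell and none rose, 16 had a log2 fold change below 0, and the median was -0.54. Ticrr, which the cyclin-dependent kinases use to fire origins, was at 150, 199 and 205 CPM in the controls and 108, 110 and 101 CPM in the mutants, with no overlap (-0.79, SE 0.16, adjusted p = 0.0324). Leaving out 1 library kept this call in 1 of 6 fits, that without control 1 (0.0418), and the adjusted p reached 0.133 without mutant 2. With the replicate block 5 fell, Ticrr, Ccna2, Mtbp, Topbp1 and Wdhd1, against 3.29% of all genes. Mtbp, a partner of Ticrr, was at 42.6 ± 9.76 and 24.1 ± 7.37 CPM (-0.82, adjusted p = 0.174, or 0.0211 when blocked).

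The fork genes that were tested were lower throughout without passing the test. All 29 tested of 30 listed had a log2 fold change below 0 (median -0.52), and none was called. With the replicate block 10 fell, where 3.29% of all genes did. Pola1, the catalytic subunit of the polymerase that lays down primers, was at 70.2, 75.2 and 46.4 CPM in the controls and 38.5, 35.3 and 21.1 CPM in the mutants. Its mutant libraries all lay below the controls (-1.01, SE 0.27, adjusted p = 0.0865, or 0.00297 when blocked). Its partner Pola2 was at 31.7, 47.4 and 24.5 CPM in the controls and 17.1, 19.9 and 12.2 CPM in the mutants (-1.07, SE 0.29, adjusted p = 0.0887, or 0.00653 when blocked). Prim2, of the primase (adjusted p = 0.130), and Lig1, the ligase of the lagging strand (adjusted p = 0.152, or 0.00333 when blocked), came next.

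Of the other lists, none of 11 nucleotide supply genes was called and 5 fell with the block (median -0.57). None of 13 E2F and pocket protein genes was called and 3 fell with the block (median -0.28). E2f8, a repressor of the family, was at 134 ± 19.95 and 85.9 ± 3.38 CPM (adjusted p = 0.0747, or 0.0122 when blocked), and Rb1 at 113 ± 18.8 and 76.1 ± 5.41 CPM (adjusted p = 0.127, or 0.0239 when blocked). None of 8 replication-coupled chromatin genes was called and 3 fell with the block (median -0.55), among them Uhrf1, which brings DNA methyltransferase to new strands (adjusted p = 0.242, or 0.0155 when blocked). Of 20 G2 and mitosis genes, Mki67 was the 1 called, and 6 fell with the block (median -0.42). No gene of these lists rose in either fit. Over all genes the block called 3.29% downward and 6.09% upward.

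**Figure D5:**
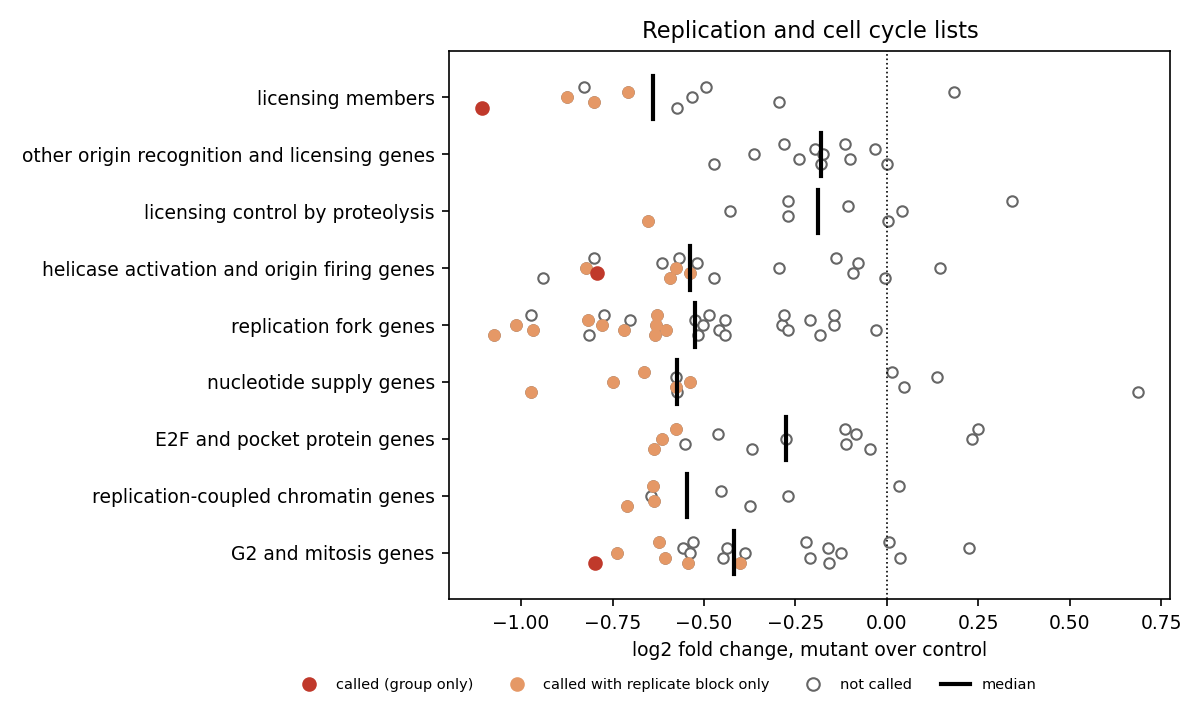
Log2 fold change of every tested gene in the 10 licensing genes and 8 other lists (1 point per gene, shifted up or down only to keep points apart), with the median as a bar. Red points (Mcm6, Ticrr and Mki67) were called with group alone and orange points with the replicate block only; the medians run from -0.64 for the licensing genes to -0.18 for the other origin recognition and licensing genes.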

How the data were processed

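The authors' deposited files hold raw counts per gene symbol, whole numbers with no normalization, 1 file per library. Per the labels' protocols, 10 ng of total RNA was amplified before 100 ng of cDNA entered each library, sequenced as single reads of 100 nucleotides. Per the submitters' processing notes, the tools were DESeq2 1.6.3, HTSeq 0.6.1, TopHat2 2.0.13 and Cufflinks 2.2.1 with mm10, without their roles. Neither the gene annotation nor the handling of strand is stated there.

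Genes were tested with edgeR 4.0.16 (R 4.3.3): filterByExpr, TMM, glmQLFit and glmQLFTest with group as the only term. The standard error of a log2 fold change comes from the F statistic, and its 95% interval from the residual and prior degrees of freedom. The alternatives were DESeq2 1.42.0, limma-voom (limma 3.58.1), other size factors and filters, robust dispersion, the replicate block and leaving out each library. The edgeR fits with and without the block were first tested on simulated data. Coordinates and lengths are from GENCODE M21 (GRCm38), and promoter sequences are from RefSeq (GRCm38.p6).

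Both groups carry replicate numbers 1 to 3. Correlations of the libraries' deviations from their group means, without 6 sex-linked genes, were 0.168 to 0.363 for libraries sharing a number and at most 0.0891 for the rest. A minimum of 0.1 was required, so the pairing comes from the data and not from the design, and blocked values are printed for named genes and counts where they change a call. The lowest chi-square per degree of freedom between 2 libraries was 25.1, so none was counted as a duplicate. By this measure control 3 was closer to mutant 3 (42.0) than to control 1 (60.5) or control 2 (85.8). Mutant 3 was likewise closer to control 3 than to mutant 1 (51.2) or mutant 2 (66.7). The 10 members and the lists were chosen with earlier results of these data known. The genes named are the members, Ring1, Rnf2, Mki67, Pcna and Top2a, neighbours that start within 1000 bases of a member or overlap it, and up to 4 genes per list, called ones first and then by p. Wdhd1 and the marker genes given singly fall outside this rule and were chosen after their values were seen. A further gene of the lists is not reported here. Precision rests on 3 libraries a group.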

Additional observations from a re-analysis of the deposited data

How the results depend on the processing

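With the replicate block 873 genes rose and 472 fell over all genes, and 4 licensing genes fell. Mcm2, Mcm4 and Mcm5 were called in addition to Mcm6. The block also gave 1 fall in licensing control by proteolysis, 5 in helicase activation, 10 among fork genes, 5 in nucleotide supply, 3 among E2F and pocket protein genes, 3 among replication-coupled chromatin genes and 6 among G2 and mitosis genes. DESeq2 called 728 genes up and 231 down, with 3 fork genes, 1 E2F gene and 4 G2 and mitosis genes down. Without a filter 109 genes fell, among them 2 fork genes and 2 G2 and mitosis genes. The G2 and mitosis falls were also 2 with upper-quartile factors, limma-voom or robust dispersion, and 0 with the stricter filter. No list gene rose in any alternative.

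Leaving out 1 library gave 143 (without mutant 2) to 554 (without control 3) rises and 19 (without mutant 1) to 110 (without control 3) falls over all genes. It gave 0 to 3 called licensing genes, 3 without control 3, and a median log2 fold change of the 10 between -0.83 and -0.42. Called falls ranged over 0 to 1 in helicase activation, 0 to 3 for fork genes, 0 to 2 in nucleotide supply, 0 to 1 for chromatin genes and stayed at 0 for G2 and mitosis genes. Cdc6 ran from -0.14 without mutant 2 to 0.43 without mutant 3, and the other 9 members kept a negative sign in all 15 alternatives. Merged exon lengths, an alternative chosen after seeing the data, changed the difference in Mcm7 share from 3.75 to 3.23 percentage points and that of Mcm6 from -5.21 to -4.51. The causes of these changes were not tested. Depth was 92 to 243 reads a library for Cdc6 and 387 to 1488 for Mcm3, and precision rests on 3 libraries a group.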
